A study of Mesocricetus auratus with 10 samples.

Results

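The acyl-CoA thioesterase (ACOT) family is described here by 10 genes, ACOT1, ACOT2, ACOT3, ACOT4, ACOT7, ACOT8, ACOT9, ACOT11, ACOT12 and ACOT13. They were taken by gene name: every non-control probe that the array design gives to one of them belongs to the family. This gave 10 of the 14434 named genes on the array and 62 of its 67053 named probes. All 10 genes and 61 of the 62 probes passed the filter on dim probes. The 1 probe that did not, for ACOT11, was well above background on 4 of 20 arrays in the HFD RNA.

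In the study, 10 male golden hamsters (Mesocricetus auratus) ate a high fat diet (HFD), and the liver RNA of 10 others on a standard diet (STD) was pooled into 1 control. RNA of every HFD animal met this pool on a pair of arrays of 2 colours, once with HFD in Cy5 and once in Cy3, which gave 20 arrays and 10 biological replicates. The labels name no genetic change, and the sources used here do not give the animals' age, the length of feeding or the diets' composition. Each value is the log2 of HFD over the STD pool, so that a value above 0 means more RNA in HFD liver, and each mean is followed by its SD between the 10 animals.

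Acyl-CoA thioesterases cut a fatty acid or other acyl group from coenzyme A, which returns the free acid and free coenzyme A. They work against the acyl-CoA synthetases, which join the same parts at the cost of ATP, and so help to set how much acyl-CoA each compartment of the cell holds. The type I enzymes (ACOT1 to ACOT4 here) share an alpha/beta hydrolase fold and close sequence, and in rodent liver several of them are known targets of the nuclear receptor PPAR alpha. The type II enzymes (ACOT7 to ACOT13 here) share a different fold, called hotdog, and little else in sequence.

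The family did not move as a block. By the probe that stands for each gene, its brightest, ACOT9 and ACOT13 rose, ACOT1, ACOT2, ACOT3 and ACOT12 fell, and ACOT4, ACOT7, ACOT8 and ACOT11 did not pass the test. The changes were small, between 1.13-fold and 1.29-fold among the 6 genes called. That is 2 of 10 members higher, where 31.3% of all 13875 tested genes were called higher, and 4 of 10 lower, where 28.8% were. Calls come from limma at an adjusted p under 0.05 (Benjamini-Hochberg over all 13875 genes, two-sided). The median of the 10 members was -0.03, and that of all tested genes was 0.01. With a single pool as control, the spread between STD animals does not enter the test, and whatever is particular to that pool is in every ratio.

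**Figure D1:**
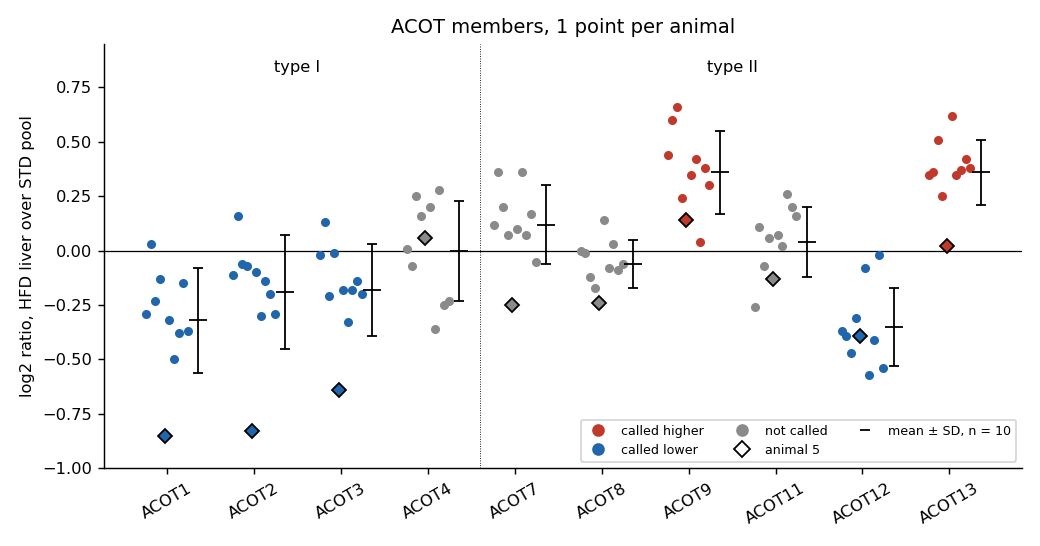
Log2 of HFD liver over the STD pool (vertical axis) for each ACOT gene, 1 point per animal, with mean ± SD (n = 10) beside the points. All 10 points lie above 0 for ACOT9 and ACOT13 and below 0 for ACOT12, and animal 5 (diamond) is the lowest point of ACOT1, ACOT2 and ACOT3.

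Some facts of the arrays bear on all values. Between 77% and 97.8% of the probes were well above background in each RNA on each array, no spot was saturated, and the probe standing for each ACOT gene was well above background in both RNAs on 20 of 20 arrays. A set of 6 arrays, those of animals 5 to 10 that carried HFD RNA in Cy3, stood apart from the other 14. Their ratios over all tested genes correlated among themselves at a mean r of 0.87 to 0.89 per array, against 0.49 to 0.533 with the other 14. The split was not clean. The 4 other arrays with HFD in Cy3 had a mean r of 0.536 to 0.598 with the 14 and of 0.462 to 0.716 with the 6. That of animal 4 was nearer to the 6 (0.716) than to the 14 (0.596). All 6 arrays share a dye orientation, and the part of the dye in the split was not tested. Results are therefore also given on the 14 arrays and for each dye. The 14 hold HFD in Cy5 on 10 and in Cy3 on 4, and values on them come from a fit of single arrays with a dye term, which weighs the 2 orientations about equally, with plain means over the 14 given where they differ. On the 14 arrays 3 members were higher and 2 lower, beside 24.9% and 18.2% of all genes. On arrays with HFD in Cy5 the counts were 3 and 5 (29.4% and 22.2% of all genes), and on arrays with HFD in Cy3 they were 2 and 2 (30.8% and 32.3%). The arrays were scanned in 3 sessions. The first gave 2 higher and 4 lower members (28.2% and 24.4% of all genes), the third gave 2 and 3 (19.7% and 17%), and the second held 1 array.

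ACOT1 is the cytosolic type I enzyme and acts on long-chain acyl-CoA. Its ratio ran from -0.85 in the lowest animal through a median of -0.30 to 0.03 in the highest. It lay below 0 in 9 of 10 animals, and animal 2 was the exception. The mean was -0.32 ± 0.24, a 1.25-fold fall (limma adjusted p = 0.000974). It was -0.18 on arrays with HFD in Cy5 and -0.45 on those with HFD in Cy3.

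ACOT2 is the mitochondrial type I enzyme, known for limiting long-chain acyl-CoA in the matrix. The 10 animals gave -0.11, 0.16, -0.06, -0.07, -0.83, -0.10, -0.30, -0.14, -0.20 and -0.29, in the order of their numbers. Animal 5 lay far below the rest, and the other 9 stayed between -0.30 and 0.16. The mean was -0.19 ± 0.26, a 1.14-fold fall (limma adjusted p = 0.029), and -0.12 without animal 5, still called. The call was lost without animal 7 (adjusted p = 0.0602), without animal 10 (0.0562), on the 14 arrays (-0.11 by the fit with a dye term, adjusted p = 0.171, against a plain mean of -0.16), on arrays with HFD in Cy3 (-0.13, adjusted p = 0.145) and in the third scan session (-0.18, adjusted p = 0.0802).

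ACOT3 is a peroxisomal type I enzyme. The lowest animal was at -0.64, the median at -0.18 and the highest at 0.13, below 0 in 9 of 10 animals. The mean was -0.18 ± 0.21, a 1.13-fold fall (limma adjusted p = 0.0166). By the probe that stands for the gene, the dye orientations differed. The mean was -0.37 on arrays with HFD in Cy5, below 0 on 10 of 10. It was 0.01 on those with HFD in Cy3, where the call was lost (limma adjusted p = 0.914). The call was also lost on the 14 arrays in the fit with a dye term (-0.11, limma adjusted p = 0.103). Their plain mean, with most of them having HFD in Cy5, was -0.21. The second probe of the gene was at -0.34 with HFD in Cy5 and -0.17 with HFD in Cy3.

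ACOT1, ACOT2 and ACOT3 shared their extreme animals. Over the 9 probes of these genes, animal 5 was the lowest animal for 9 and animal 2 the highest for 8. Both arrays of animal 5 were low: ACOT1 stood at -0.73 with HFD in Cy5 and -0.97 with HFD in Cy3, ACOT2 at -0.95 and -0.72, and ACOT3 at -0.85 and -0.43. Without animal 5 the means were -0.26, -0.12 and -0.13, and all 3 genes were still called lower. Across the whole family, animal 5 was the lowest animal for 6 of 10 members, with a median over the members of -0.25, and animal 2 had the highest such median at 0.12.

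The probes that stand for these 3 genes are shown because the type I enzymes are alike in sequence, so the calls rest on which stretch each probe reads. They are written 5′ to 3′ as the array files give them, with no capitals because none of the 3 shares a run of 20 or more bases with another probe of the family.
ACOT1 CUST_37861: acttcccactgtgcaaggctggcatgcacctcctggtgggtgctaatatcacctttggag
ACOT2 CUST_13897: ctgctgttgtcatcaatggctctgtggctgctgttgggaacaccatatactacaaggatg
ACOT3 CUST_16852: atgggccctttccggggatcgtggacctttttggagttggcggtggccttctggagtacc

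Not all probes of these genes were called. ACOT1 had 5 probes on 4 assembled transcripts. The 2 on the transcript of the representing probe were called lower (-0.32 ± 0.24 and -0.26 ± 0.23), and the 3 on other transcripts were not, with means of -0.14 ± 0.26, -0.16 ± 0.29 and -0.17 ± 0.36. Of the 2 probes of ACOT2, 1 was called lower and the other stood at -0.16 ± 0.25 (limma adjusted p = 0.0611 over all 61958 probes), and both probes of ACOT3 were lower.

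An ACOT1 probe and an ACOT3 probe share part of their sequence, and they are shown because RNA of either gene might bind both. Capitals mark the longest run they share, of 21 bases. In an alignment of 53 bases, which takes in more than that run, 44 were identical (83%).
ACOT1 CUST_9751: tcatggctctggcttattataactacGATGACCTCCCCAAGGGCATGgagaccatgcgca
ACOT3 CUST_16853: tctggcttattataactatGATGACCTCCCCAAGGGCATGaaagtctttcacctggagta
The ACOT3 probe was the lower of the pair in 9 of 10 animals, with means of -0.25 against -0.14. The mean difference was -0.11 ± 0.08 (two-sided exact sign-flip permutation test, p = 0.00391, adjusted p = 0.0117 over 9 pairs of probes that share sequence). The pairs were singled out after their values were seen, so this p cannot stand as support for the difference. How much of each gene's RNA a probe of this pair binds was not tested.

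ACOT4, the last type I member, is a peroxisomal enzyme that also acts on succinyl-CoA and other dicarboxylic acyl-CoA. Animals spread from -0.36 over a median of 0.04 to 0.28, above 0 in 6 animals and below in 4. The mean was 0 ± 0.23 (limma adjusted p = 0.951), with a 95% interval of -0.13 to 0.14. It had the most probes of the family, 14 on 7 assembled transcripts, and 13 of them were not called, with means between -0.09 and 0.02.

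The remaining ACOT4 probe, CUST_22415, stood at -0.52 ± 0.39 (limma adjusted p = 0.000755), below 0 in 10 of 10 animals. Its sequence reads the opposite strand from 2 other ACOT4 probes, which is why the 3 are shown. Capitals mark the 54 bases that CUST_13645 shares, as the reverse complement, with CUST_22415, and in CUST_27469 the 29 bases shared with it in the same way.
ACOT4 CUST_13645: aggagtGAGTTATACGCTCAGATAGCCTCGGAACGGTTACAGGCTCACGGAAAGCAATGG
ACOT4 CUST_27469: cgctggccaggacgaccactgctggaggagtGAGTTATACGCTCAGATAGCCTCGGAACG
ACOT4 CUST_22415: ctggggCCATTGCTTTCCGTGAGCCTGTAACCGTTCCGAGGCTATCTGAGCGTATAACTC
A probe pairs with its complement, so the opposite-strand probe reads RNA of the other orientation, as far as the labelling kept the strand. Over the 10 animals CUST_22415 lay below CUST_13645 by 0.19 to 0.94, and the mean difference was -0.53 ± 0.28 (two-sided exact sign-flip permutation test, p = 0.00195, the smallest it can give, adjusted p = 0.00878 over 9 pairs). The pairs and CUST_22415 were singled out after their values were seen, so this p cannot stand as support for the difference. The 2 probes that share a strand had a mean of 0.01 each, and their difference from each other was 0 ± 0.04. CUST_22415 was much dimmer, with a mean log2 brightness of 9.31, against 13.7 for CUST_13645 and 13.44 for CUST_27469. The comparison thus sets a weaker signal against stronger ones, and the part of brightness in the difference was not tested.

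CUST_22415 was lowest on the 6 arrays that stood apart. There its mean was -1.23, from -1.80 to -0.57, while CUST_13645 had a mean of 0.21. On the arrays with HFD in Cy3 of animals 1 to 4 it was -0.10, from -0.23 to 0.01, against 0.24 for CUST_13645, and it lay below that probe on 4 of 4 by 0.20 to 0.44. On the 10 arrays with HFD in Cy5 it was -0.26 ± 0.21 against -0.21 ± 0.21 for CUST_13645. The difference between these 2 probes was thus -1.44 on the 6 arrays, -0.33 on the 4 and -0.06 on the 10. On the 14 arrays it was -0.19 with both dyes weighed equally and -0.14 as a plain mean. No test was run on these values, and the cause was not tested.

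**Figure D2:**
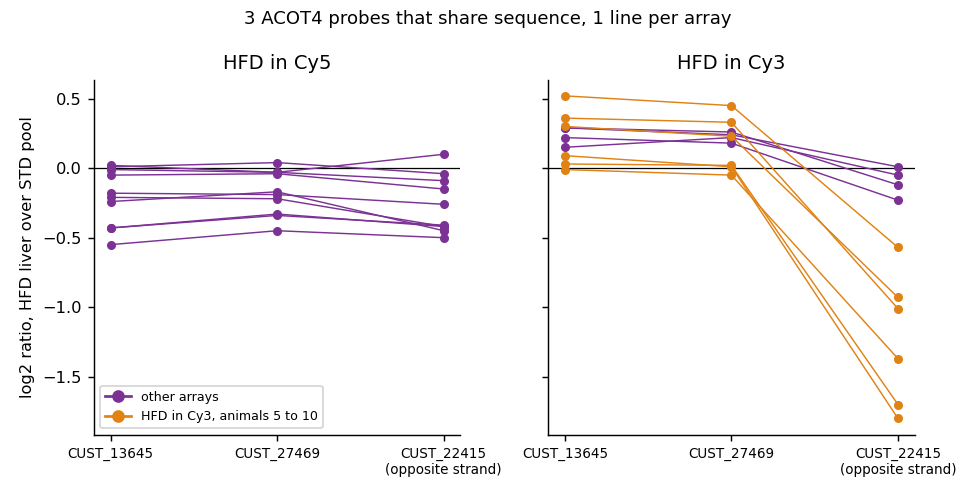
Log2 of HFD liver over the STD pool (vertical axis) of 3 ACOT4 probes that share sequence (horizontal axis), 1 line per array, with HFD in Cy5 on the left and in Cy3 on the right. The opposite-strand probe falls to between -1.80 and -0.57 on the 6 arrays with HFD in Cy3 of animals 5 to 10 and stays near its partners on the 10 arrays with HFD in Cy5.

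Among the type II enzymes, ACOT13 rose. It is a small hotdog protein, also called THEM2, that cuts long-chain acyl-CoA and binds the phosphatidylcholine transfer protein. Its ratio ran from 0.02 through a median of 0.37 to 0.62 and was above 0 in 10 of 10 animals, as 16.3% of all tested genes were. The mean was 0.36 ± 0.15, a 1.29-fold rise (limma adjusted p = 1.54e-05). It was 0.45 on arrays with HFD in Cy5 and 0.28 on those with HFD in Cy3. Its second probe gave 0.43 ± 0.16, also above 0 in every animal. Animal 5 was again the lowest.

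ACOT9, a mitochondrial enzyme that acts on acyl-CoA of several chain lengths, rose as well. The animals lay between 0.04 and 0.66 with a median of 0.36, above 0 in 10 of 10 animals. The mean was 0.36 ± 0.19, a 1.28-fold rise (limma adjusted p = 7.75e-05). By the probe that stands for the gene, the dyes differed. With HFD in Cy5 the mean was 0.56 and all 10 arrays were above 0. With HFD in Cy3 it was 0.16 with 7 of 10 above 0, and the call was lost (limma adjusted p = 0.0536). In that orientation the mean was 0.32 in animals 1 to 4 and 0.06 in animals 5 to 10. CUST_73535 was at 0.36 with HFD in Cy5 and 0.14 with HFD in Cy3. CUST_73534, CUST_73531 and CUST_73533 went the other way, at 0.24, 0.20 and 0.08 with HFD in Cy5. With HFD in Cy3 they were at 0.47, 0.34 and 0.16. All 5 probes of the gene were called higher, with means between 0.12 and 0.36.

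ACOT12 fell. It is the cytosolic enzyme that cuts acetyl-CoA, it is known for its high level in liver, and it carries a lipid-binding START domain. Its ratio ran from -0.57 through a median of -0.39 to -0.02, below 0 in 10 of 10 animals, as 15.1% of all tested genes were. The mean was -0.35 ± 0.18, a 1.28-fold fall (limma adjusted p = 4.98e-05), with -0.31 and -0.40 in the 2 dye orientations. All 8 probes of the gene were called lower, with means between -0.42 and -0.21.

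These 3 genes have each probe on 1 assembled transcript, and the probes that stand for them are shown as the sequences behind the largest rises and the largest fall of the family. No run of 20 or more bases is shared with another probe of the family, so there are no capitals.
ACOT9 CUST_73536: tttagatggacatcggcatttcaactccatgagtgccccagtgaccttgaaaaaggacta
ACOT12 CUST_77370: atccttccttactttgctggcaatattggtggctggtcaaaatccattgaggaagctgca
ACOT13 CUST_42998: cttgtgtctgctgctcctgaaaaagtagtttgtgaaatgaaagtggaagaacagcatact

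ACOT11, also called THEM1 and known from brown fat, is the other member with a START domain. By its brightest probe it ran from -0.26 through a median of 0.06 to 0.26, and the mean of 0.04 ± 0.16 was not called (limma adjusted p = 0.444, 95% interval -0.06 to 0.14). The probe gave 0.18 with HFD in Cy5, -0.09 with HFD in Cy3, and on the 14 arrays -0.06 by the fit with a dye term and 0.04 as a plain mean. Other probes of the gene went further: 7 of 12 tested probes were called higher and none lower, with means of 0.09 to 0.23 among those called. Of all tested probes, 31% were called higher and 28.1% lower. The 7 probes were dim, with a mean log2 brightness of 7.1 to 8.21, against 6.34 for the probe that did not pass the filter. With the mean of all its probes in place of the brightest, ACOT11 was higher at 0.13 (limma adjusted p = 0.00232).

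ACOT7, a cytosolic long-chain acyl-CoA thioesterase best known from brain, lay close to the threshold. The ratio went from -0.25 in animal 5 through a median of 0.11 to 0.36, above 0 in 8 of 10 animals. The mean was 0.12 ± 0.18 (limma adjusted p = 0.0674, 95% interval 0 to 0.23). It was called higher in 8 of 25 alternatives. These were the 14 arrays (0.17, adjusted p = 0.00986), arrays with HFD in Cy3 (0.15, adjusted p = 0.0449), the fits without animal 5 (0.16, adjusted p = 0.00732) and without animal 10 (0.13, adjusted p = 0.0484), median centring (adjusted p = 0.0361), the trend and robust variance (0.0496), and the animal and slide blocks (0.021 and 0.00887). Of its 5 probes, 3 were called higher.

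ACOT8, a peroxisomal enzyme of broad range that also acts on the acyl-CoA of bile acids, ran from -0.24 through a median of -0.07 to 0.14. The mean was -0.06 ± 0.11 (limma adjusted p = 0.149, 95% interval -0.13 to 0.01). It was called lower without animal 6 (-0.08, adjusted p = 0.0423) and on arrays with HFD in Cy5 (-0.11, adjusted p = 0.0373). ACOT8 was also called lower with the slide block (-0.05, limma adjusted p = 0.0487). Of its 6 probes, 2 on other transcripts were called lower, CUST_32964 at -0.15 ± 0.12 and CUST_72745 at -0.15 ± 0.13. Both were dim, with a mean log2 brightness of 7.69 and 7.15. The 4 on the transcript of the representing probe, at 9.37 to 10.79, were not called, with means between -0.06 and 0.01. CUST_72745 also reads the opposite strand, here from CUST_52073, the probe that stands for the gene. These 2 are shown with the 58 shared bases in capitals.
ACOT8 CUST_52073: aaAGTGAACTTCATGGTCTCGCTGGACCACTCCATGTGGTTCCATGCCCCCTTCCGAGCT
ACOT8 CUST_72745: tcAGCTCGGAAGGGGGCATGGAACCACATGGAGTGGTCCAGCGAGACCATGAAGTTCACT
Their difference of -0.09 ± 0.12 did not pass the test (two-sided exact sign-flip permutation test, p = 0.0547, adjusted p = 0.0985 over 9 pairs), with CUST_72745 the lower in 6 of 10 animals. It was -0.24 when the processed signals of the scanner were used and -0.01 on the 14 arrays.

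**Figure D3:**
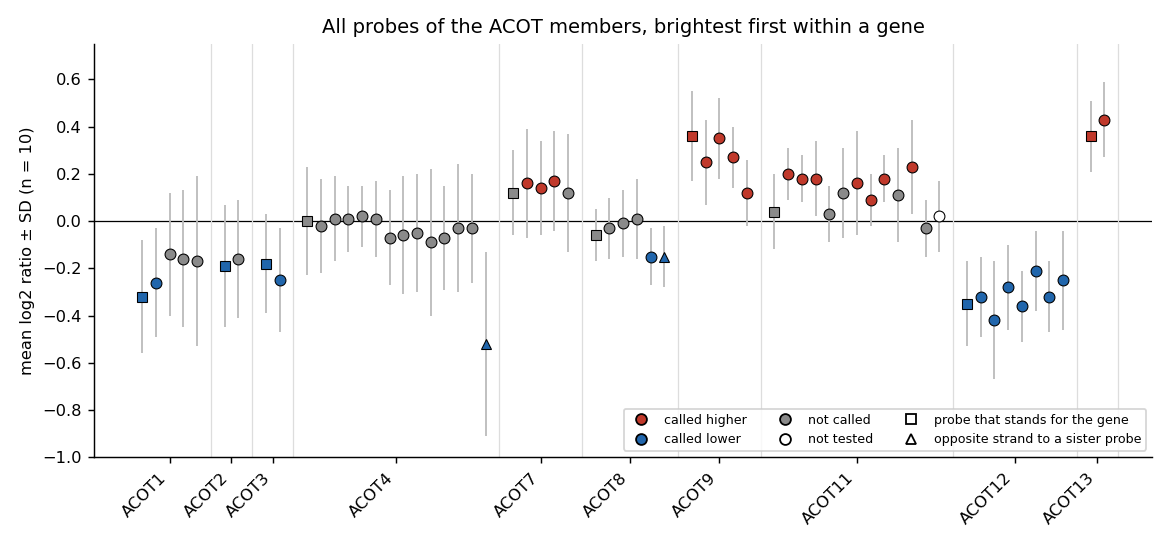
Mean log2 ratio ± SD (n = 10 animals, vertical axis) of each of the 62 ACOT probes, grouped by gene with the brightest first (square). All 5 ACOT9 probes and both ACOT13 probes are called higher, all 8 ACOT12 probes are called lower, and the triangle at -0.52 is the ACOT4 probe of the opposite strand.

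Over all probes of the family, 17 of 61 were called higher and 16 lower, beside 31% and 28.1% of the 61958 probes tested. No gene of the family had probes called in opposite directions. On arrays with HFD in Cy5 alone 11 probes were higher and 27 lower (21.9% and 24.5% of all probes), and on those with HFD in Cy3 alone 22 were higher and 11 lower (33.8% and 27.7%). In the third scan session 10 were higher and 13 lower (17.7% and 15.7%).

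By the probes that stand for the genes, the dye orientations differed most for ACOT9 and ACOT3. By these probes, the means of ACOT13, ACOT12 and ACOT1 kept their sign in both orientations and remained called in each. ACOT3, ACOT4 and ACOT11 changed sign between the orientations. For these 3 the mean with HFD in Cy3 was 0.01, -0.03 and -0.09. The other ACOT1 probe on the transcript of the representing probe was at -0.35 with HFD in Cy5 and -0.16 with HFD in Cy3. The 3 ACOT1 probes on other transcripts were at -0.27, -0.31 and -0.30 with HFD in Cy5. With HFD in Cy3 they were at -0.01, -0.01 and -0.05. Averaging the 2 arrays of an animal balances the orientations, and the differences between dyes were not tested.

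**Figure D4:**
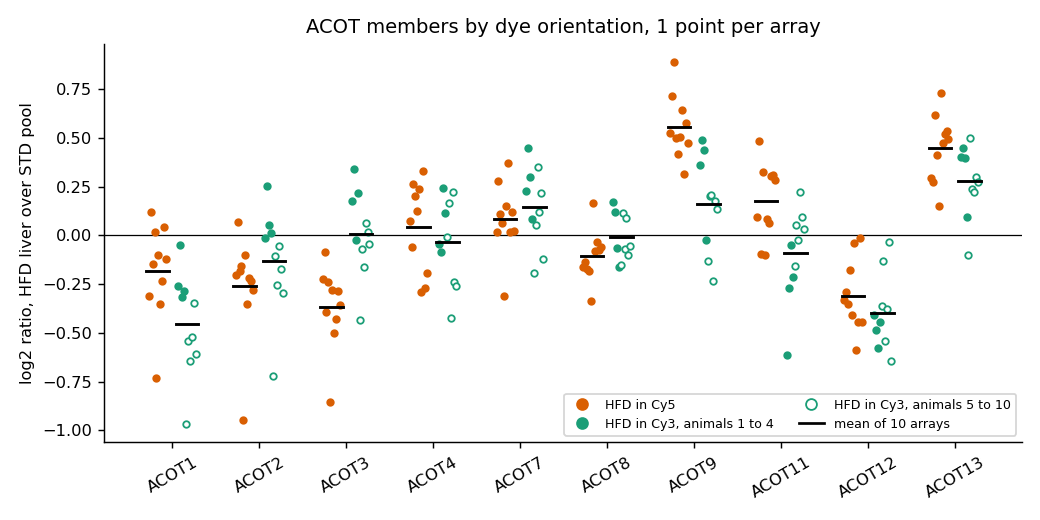
Log2 of HFD liver over the STD pool (vertical axis) for each ACOT gene, 1 point per array, split by the dye of the HFD RNA, with open points for the 6 arrays of animals 5 to 10 with HFD in Cy3. ACOT9 averages 0.56 with HFD in Cy5 and 0.16 with HFD in Cy3, and ACOT12 lies below 0 on all 20 arrays.

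By compartment the members did not line up either. The cytosolic members held 2 falls (ACOT1, ACOT12) and 2 genes not called (ACOT7, ACOT11). The mitochondrial members held a fall (ACOT2) and 2 rises (ACOT9 and ACOT13), and the peroxisomal ones held a fall (ACOT3) and 2 genes not called (ACOT4, ACOT8). These places are textbook knowledge and were not measured.

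Genes that make, bind or use acyl-CoA were described from lists chosen with earlier results of these data known, and are given as counts beside the shares of all genes called (31.3% higher, 28.8% lower). Of the 32 genes of these lists that are named, 13 lost their call or turned sign in at least 1 alternative. Of the acyl-CoA synthetases, which work against the thioesterases, 3 of 19 tested rose and 8 fell, with a median of -0.06. ACSL5, which activates long-chain fatty acids, fell to -0.96 ± 0.50 (-0.63 on the 14 arrays), and ACSF2 fell to -0.87 ± 0.21, while ACSF3, which activates malonate in mitochondria, rose by 0.38 ± 0.10. ACSM2, of the medium-chain enzymes, was called at 0.23 ± 0.33 and lost its call in 10 of 25 alternatives.

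Other enzymes that cut acyl thioesters held the counts 4 higher and 0 lower of 7 tested, with a median of 0.14. PPT1 and PPT2, the lysosomal palmitoyl-protein thioesterases, rose to 0.60 ± 0.21 and 0.23 ± 0.11, HIBCH, which cuts an acyl-CoA of valine breakdown, rose to 0.38 ± 0.14, and LYPLA1, a depalmitoylating enzyme, rose to 0.14 ± 0.08. On arrays with HFD in Cy5 alone HIBCH was at 0.04 (limma adjusted p = 0.419), against 0.72 with HFD in Cy3, and PPT2 at 0.08 (0.0969). LYPLA1 lost its call on the 14 arrays (0.04, adjusted p = 0.459) and in the third scan session (0.11, adjusted p = 0.0783). ACOT6, a type I relative with 1 probe, was in this list and was not called (-0.12 ± 0.18, limma adjusted p = 0.0547).

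Proteins that bind acyl-CoA had 6 of 9 lower and none higher (median -0.26). DBI, the acyl-CoA binding protein, fell to -0.96 ± 0.18 and ACBD4 to -0.63 ± 0.19, while SCP2 (-0.26 ± 0.18) and ACBD3 (-0.18 ± 0.09) fell less. Synthesis and transport of coenzyme A had 7 of 11 lower and none higher (median -0.26). PANK1, a pantothenate kinase that starts the pathway, fell to -0.98 ± 0.18 and COASY, which ends it, to -0.43 ± 0.17, with PPCS (-0.26 ± 0.22) and the vitamin transporter SLC5A6 (-0.16 ± 0.12) also lower. With the mean of all probes PANK1 was at -0.57, COASY at -0.21 and ACBD4 at -0.38. With HFD in Cy5 these 3 were at -1.29, -0.18 and -0.98, and with HFD in Cy3 at -0.67, -0.67 and -0.28. COASY was at -0.21 on the 14 arrays, and SLC5A6 lost its call with HFD in Cy3 (-0.03, adjusted p = 0.557) and with median centring (-0.11, adjusted p = 0.0642). Breakdown of coenzyme A had 2 higher and 2 lower of 5 (median 0.01). VNN1 (-0.34 ± 0.13), a pantetheinase, and ENPP1 (-0.26 ± 0.16) fell. ENPP3 was called higher at 0.15 ± 0.11, though the pool gave its probe a signal well above background on 7 of 20 arrays. It lost its call on the 14 arrays (0.10, adjusted p = 0.0897) and with median centring (0.07, adjusted p = 0.183), and was at 0.61 with the processed signals. The peroxisomal hydrolase NUDT7 (0.10 ± 0.12) was called higher but turned to -0.02 with the mean of all probes and to -0.10 on arrays with HFD in Cy5.

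Peroxisomal use of acyl-CoA had 11 of 19 genes lower and 1 higher (median -0.21). EHHADH, the bifunctional enzyme, fell to -1.02 ± 0.19 and CROT, the carnitine octanoyltransferase, to -0.75 ± 0.55, but to -0.25 on the 14 arrays, with -0.33 for HFD in Cy5 and -1.16 for HFD in Cy3. ACAA1B was called lower at -0.18 ± 0.17 and lost its call on the 14 arrays (-0.01, adjusted p = 0.857), with HFD in Cy3 (-0.02, adjusted p = 0.856) and in the third session (-0.19, adjusted p = 0.0981). PHYH, which hydroxylates phytanoyl-CoA, rose to 0.66 ± 0.16 by its brightest probe but was not called at 0.16 with the mean of its probes. Mitochondrial use had 13 of 18 lower and 3 higher (median -0.26). ECI2 (-0.80 ± 0.16) and the medium-chain dehydrogenase ACADM (-0.64 ± 0.26, and -0.39 on the 14 arrays) fell. ACADL (0.18 ± 0.08) and ACADS (0.17 ± 0.17) rose, but ACADL was not called at 0.05 with the mean of its probes, and ACADS was at -0.12 on arrays with HFD in Cy5.

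The receptor PPAR alpha and its partners had 3 of 13 higher and 5 lower (median 0). PPARA itself fell to -0.32 ± 0.24 and HNF4A, a nuclear receptor that is also in the hepatocyte list, to -0.39 ± 0.19. RXRA, the dimer partner, rose to 0.47 ± 0.19 by its brightest probe, was at 0.26 on the 14 arrays and was at -0.10 with the mean of all its probes. PPARGC1A was called higher at 0.22 ± 0.24. That call was lost with the mean of its probes (0.10, adjusted p = 0.08), with HFD in Cy5 (0.09, adjusted p = 0.308), on the 14 arrays (0.08, adjusted p = 0.379) and in the third session (0.18, adjusted p = 0.0724).

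**Figure D5:**
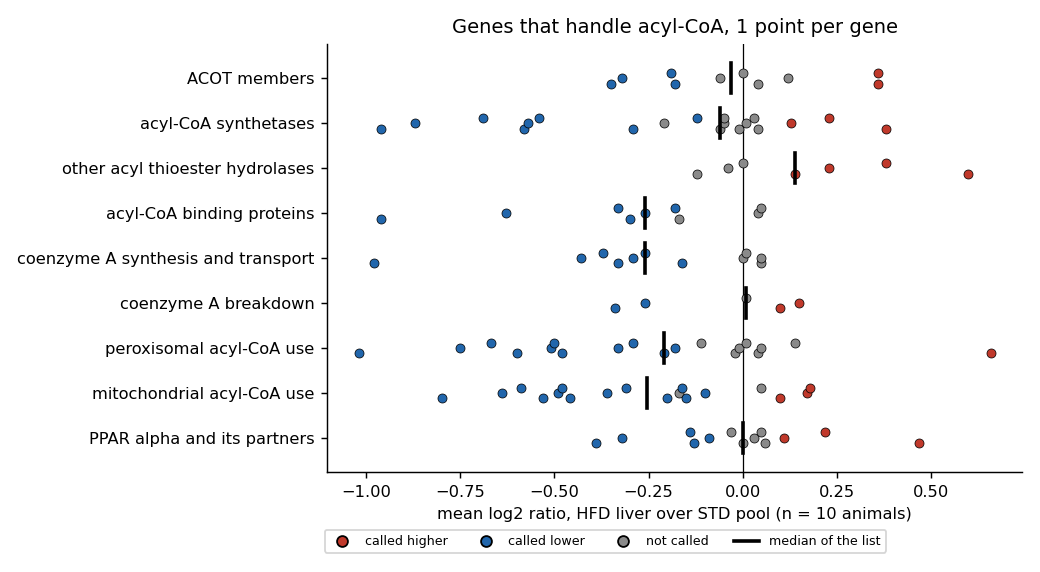
Mean log2 of HFD liver over the STD pool (horizontal axis, n = 10 animals) for each tested gene of the ACOT family and of 8 lists of genes that handle acyl-CoA (rows), with the median of each list as a bar. The ACOT genes lie between -0.35 and 0.36 around a median of -0.03, while the lists of acyl-CoA binding, coenzyme A synthesis and mitochondrial use have medians of -0.26.

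Markers of cell types were counted too, beside the 31.3% of all tested genes called higher and the 28.8% called lower. Lists with counts near these shares, such as endothelium, show no more than the genes at large. Of 18 hepatocyte markers 17 were tested, and each was well above background on 20 of 20 arrays. Muscle and fat markers such as CKM and PLIN1 were too, so detection does not identify the tissue. Of the 17 hepatocyte markers, 13 fell and 1 rose (median -0.39), and their mean ran from -0.61 to -0.29 across animals. Of 12 macrophage and Kupffer cell markers 7 rose and 3 fell (median 0.11, animal means -0.06 to 0.32). In such bulk tissue, fewer cells of a type and less RNA per cell cannot be told apart, and the part of these shifts in the ACOT values was not tested. Among the other lists, stellate cells and fibroblasts had 3 higher and 2 lower of 11, endothelium 3 and 2 of 9, cholangiocytes 2 and 1 of 7, lymphocytes 0 and 6 of 9, and neutrophils 0 and 1 of 4. Erythroid cells had 0 higher and 2 lower of 4, adipocytes 0 and 2 of 6, skeletal muscle 2 and 2 of 8, and pancreas and intestine 0 and 1 of 1.

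For the members at both ends of the family, the genes whose ratios ran most alike across the 10 animals were looked up. With ACOT13 these were MRPL54 (Pearson r = 0.941), NADSYN1 (0.915) and NGLY1 (0.895). With ACOT12 they were SCAND1 (0.863), DIS3 (0.847) and MAML1 (0.845). The values are the highest among 13875 genes and all animals share 1 pool, so they describe these 10 livers and carry no test. Mean ratios of these genes were 0.12, -0.04, -0.22, 0.29, 0.02 and 0.01 in the same order.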

How the data were processed

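Liver RNA of 10 HFD hamsters and 1 STD pool was labelled with Cy3 or Cy5 (100 ng per labelling, per the labels' protocols) and hybridised to custom Agilent arrays of 60-base probes. The deposited spot intensities were made with Feature Extraction 10.7.3.1, per the file headers, as were processed intensities after its background subtraction and LOWESS dye normalisation. A table of log2 ratios by probe was deposited by the authors too, with limma named in the submitters' processing notes. The background method, centring and scale of that table were not given in the sources used here. They correlated with the ratios computed here at r of 0.919 to 0.971 per animal, with slopes of 0.999 to 1.39 and column medians between -0.0145 and 0.0185. The dye of each RNA, and so the direction of all ratios, was read from the array names.

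Intensities were corrected with normexp (offset 50) and loess in limma 3.58.1 under R 4.3.3. The 2 arrays of an animal were averaged. Probes well above background in either RNA on at least 10 of 20 arrays, with a value on all, were kept, and the brightest stood for its gene. The mean of 10 ratios was tested against 0 with lmFit and eBayes, over genes and again over probes. Without the 6 arrays, the fit was on single arrays, with terms for the dye and a random block for animals. Sign-flip permutation tests compared 9 pairs of probes that share at least 20 bases. The script was tested on simulated data. Depth is not a property of arrays: their number limits the precision.

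Gene names are those of the array design. 7 of 10 members (not ACOT1, ACOT2 and ACOT3) and 76.8% of tested names occur among the symbols of RefSeq assembly BCM_Maur_2.0. No positions are given, since the build behind the array design is not given in the sources used here. Probe sequences come from the scanner files. The genes named are every member, for each list the 2 highest and the 2 lowest called genes, and for the highest and the lowest member the 3 genes most alike over animals. The probe pairs, CUST_22415 and ACOT6 were singled out after their values were seen. The members and lists were chosen with earlier results of these data known.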

Additional observations from a re-analysis of the deposited data

Results flagged for a closer look

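ACOT2 had 1 animal far from the others. Animal 5 stood at -0.83, the nearest animal at -0.30 and the opposite end at 0.16, so that the gap made up 0.534 of the whole range, above Dixon's critical value for a group of this size. This was the 1 such gene among 48 examined, and chance alone gives about 1 in 20. Without animal 5 the mean of ACOT2 was -0.12 and the gene was still called lower.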

How the results depend on the processing

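ACOT1, ACOT12 and ACOT13 kept direction and call under all 25 alternatives: background correction and normalisation, the authors' ratios, filter, probe choice, variance model, dye, animal and slide blocks, scan session, the 14 arrays and each animal left out. Their means lay between -0.45 and -0.18, -0.40 and -0.31, and 0.28 and 0.45. ACOT9 lost its call only on arrays with HFD in Cy3. Except with the mean of all probes, the brightest probe stood for each gene here.

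Counts of calls moved with the arrays used. The members lower were 2 on arrays with HFD in Cy3 and 2 on the 14 arrays. The probes higher were 11 and the probes lower 27 on arrays with HFD in Cy5, and the probes higher were 10 in scan session 3, where the share of all probes called higher was 17.7%. Leaving out each animal in turn gave 2 to 3 members higher, 3 to 5 lower, a median of -0.05 to -0.01, 13 to 18 probes higher and 15 to 19 lower. Median centring left 4254 genes higher and 2803 lower of 13875.

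Some signs turned, of values near 0 and, for ACOT3, NUDT7, RXRA and ACADS, of called values. ACOT4 was -0.02 with median centring, -0.06 with the mean of all probes, -0.03 with HFD in Cy3 and -0.03 to 0.05 with an animal left out. ACOT3 was 0.01 and ACOT11 -0.09 with HFD in Cy3, and ACOT11 was -0.06 on the 14 arrays, where the fit weighs the dyes about equally and the plain mean was 0.04. NUDT7 was -0.02 and RXRA -0.10 with the mean of all probes, and NUDT7 was -0.10 and ACADS -0.12 with HFD in Cy5. NADSYN1 was 0.02 with median centring, 0.03 with HFD in Cy3 and 0 in session 3. DIS3 was -0.09 with HFD in Cy3, 0 in session 1 and 0 to 0.04 with an animal left out. MAML1 was 0 with HFD in Cy3, -0.01 on the 14 arrays, -0.01 in session 1 and 0 to 0.01 with an animal left out. The cause was not tested.

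The comparison of opposite-strand probes, chosen after seeing the data, gave -0.06 for CUST_22415 minus CUST_13645 with HFD in Cy5 and -1 with HFD in Cy3. HFD animals could not be paired with STD animals, because the pool is 1 sample with no replicate numbers.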
